A study of Mus musculus with 6 samples.

Results

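A set of 8 genes of triglyceride clearance and fatty acid uptake was followed in mouse iWAT, the inguinal white fat depot that lies under the skin. The genes were chosen by symbol for their roles: Lpl, Lmf1, Gpihbp1, Angptl4, Vldlr, Cd36, Fabp4 and Fabp5. All 8 had a row among the 23997 gene symbols of the table, and all 8 were among the 12818 genes tested. Atf4AKO mice carried a floxed Atf4 gene together with Cre recombinase driven by the adiponectin promoter, which is active in adipocytes. Atf4WT mice carried the floxed gene and no Cre, so every Atf4AKO library has Cre and no Atf4WT library has it. Mice of both genotypes were housed at 22 °C and then spent 12 h at 5 °C, so the libraries hold no warm reference. Poly(A) RNA of the whole pad was sequenced, with 3 libraries per genotype. The sources used here give no age, sex, litter or strain background, and do not say whether a library is 1 animal. P-values therefore measure the spread between these libraries. The comparison asks whether losing the stress-response transcription factor ATF4 from adipocytes goes with a change in the genes that bring lipid into the cold-exposed fat pad.

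Lipoprotein lipase frees fatty acids from circulating triglyceride-rich lipoproteins at the wall of capillaries. Adipocytes make the enzyme, LMF1 helps it fold in the endoplasmic reticulum, and GPIHBP1 on capillary endothelial cells carries it to the vessel lumen. ANGPTL4 inactivates it, and in adipose tissue this regulation is known to shift fuel between storage and oxidising tissues. The freed fatty acids enter cells with the help of CD36 and are bound inside by the small proteins FABP4 and FABP5, while VLDLR binds the lipoprotein particles. Cold is known to raise lipid uptake in thermogenic fat.

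One sequence is shown because it is the only match to an ATF4-type motif in the promoter windows at hand. RefSeq windows on GRCm38.p6 were matched by symbol for 3 of the 8 genes, Cd36, Lmf1 and Vldlr, and Vldlr had a window for each of 2 starts. The 250 bases before each start were searched on both strands for TGATGNAA, the core of the amino acid response element. The window before the downstream Vldlr start held 1 match, and those of Cd36, Lmf1 and the upstream Vldlr start held 0. The motif occurred in 3.45% of 32851 such windows. The window lies at chr19:27216770-27217019 on the plus strand. The match, in capitals, reads as the motif on the opposite strand, begins 200 bases before the start and covers 27216820 to 27216827. GENCODE places it in an exon of a retained-intron transcript of Vldlr and in no untranslated region or coding sequence. A match of letters does not show that a factor binds there.

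Vldlr, downstream start: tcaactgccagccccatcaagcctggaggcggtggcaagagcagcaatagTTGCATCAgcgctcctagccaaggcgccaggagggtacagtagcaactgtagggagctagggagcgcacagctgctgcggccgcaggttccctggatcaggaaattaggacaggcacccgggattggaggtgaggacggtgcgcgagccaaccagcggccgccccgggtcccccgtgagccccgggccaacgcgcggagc

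No gene of the system passed the threshold between the genotypes. The differences of group means ran from -0.09 for Gpihbp1 to 0.41 for Fabp5 (Atf4AKO minus Atf4WT, in units of log2(FPKM + 1)). FPKM is the number of sequenced fragments scaled to transcript length and to the size of the library. By limma with Benjamini-Hochberg adjustment over all tested genes and a threshold of 0.05, 0 of 8 were called, where 0.0156% of all tested genes were. At an unadjusted p under 0.05 the count was also 0 of 8, against 9.95% of all tested genes. The groups overlapped in all 8, so 0 of 8 lay apart, against 16.5% of all tested genes. Groups lie apart more often with fewer libraries: without Atf4AKO 1, 3 of 8 (Lpl, Angptl4 and Cd36) lay apart, with both remaining Atf4AKO libraries above Atf4WT, against 24.5% of all tested genes lying apart in either direction. The count was 2 of 8 without Atf4WT 2 (Lmf1 and Vldlr, both higher in Atf4AKO, against 29.5% of all tested genes). It was 2 of 8 without Atf4WT 3 (Angptl4 and Cd36, both higher in Atf4AKO, against 23.8%). It was 1 of 8 without Atf4WT 1 (Gpihbp1, lower in Atf4AKO, against 29.7%). It was 0 of 8 without Atf4AKO 2 (19.6%) and without Atf4AKO 3 (41.3%). Of the 8, 7 (all but Gpihbp1) had a positive difference, and 50.6% of all tested genes did. The median over the 8 was 0.26, beside 0.0046 over all tested genes. It was 0.25 over 16 adipocyte markers outside the 8, of which 13 were positive. Over 15 fibroblast and preadipocyte markers it was 0.73, with 14 positive. It was 3.02 over 15 skeletal muscle markers and 1.39 over 15 macrophage markers, all of them positive. Over 16 mammary and skin epithelial markers it was -1.43, with 0 positive, and over 16 endothelial markers 0.03, with 8 positive. Apart from a fit with the muscle marker level as a covariate, the part of these lists in the differences of the 8 was not tested. The 95% intervals of all 8 include 0, and the widest, that of Vldlr, runs from -0.68 to 1.22.

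**Figure D1:**
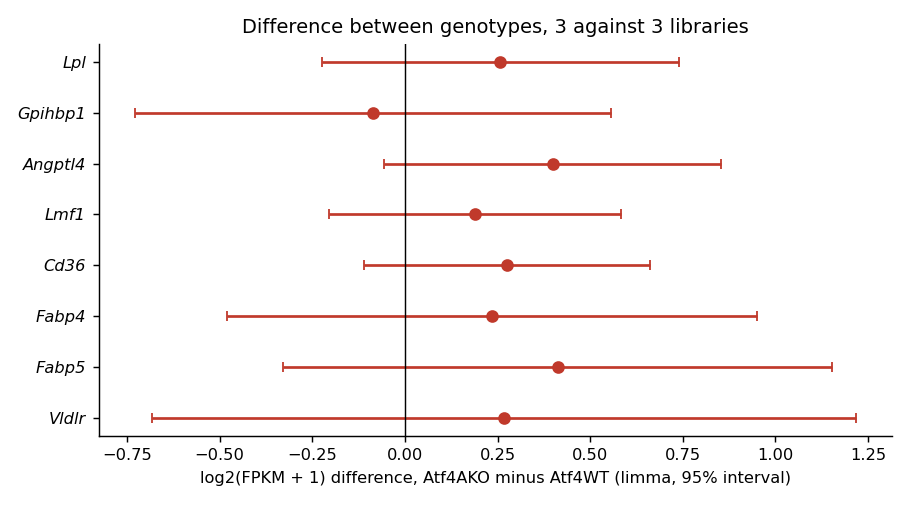
Difference in log2(FPKM + 1), Atf4AKO minus Atf4WT, for each gene (points) with its 95% interval from limma (bars), 3 libraries per genotype. Every interval crosses 0. Angptl4 has the lower bound nearest to 0, at -0.06.

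The targeted gene Atf4 was listed at 152, 140 and 114 FPKM in the Atf4AKO libraries, against 258, 323 and 317 FPKM in the Atf4WT libraries. The genotypes did not overlap in Atf4, whose log2 difference was -1.14 (SE 0.16, limma adjusted p = 0.49). Sums of FPKM ran from 615141 to 717778 in Atf4AKO and from 524158 to 625418 in Atf4WT, and the deepest library, Atf4WT 1, had 1.19 times the mean relative depth. Adipocyte markers summed to between 31253 and 47061 FPKM in Atf4AKO and between 29263 and 39448 FPKM in Atf4WT, with 0 of 16 listed at 0. Fibroblast and preadipocyte markers summed to between 2503 and 4644 FPKM in Atf4AKO and between 1782 and 2667 FPKM in Atf4WT, with 0 of 15 listed at 0. Skeletal muscle markers summed to between 9.18 and 9429 FPKM in Atf4AKO and between 11.5 and 986 FPKM in Atf4WT, and 4 of 16 (Myh1, Myh2, Actn3 and Myoz1) were listed at 0 in at least 1 library. Mammary and skin epithelial markers summed to between 3.71 and 254.6 FPKM in Atf4AKO and between 3.25 and 1341 FPKM in Atf4WT, with 6 of 16 (Krt5, Krt14, Krt8, Cldn7, Csn3 and Wfdc18) listed at 0 in at least 1 library. All 15 macrophage markers were above 0, summing to between 613 and 3415 FPKM in Atf4AKO and between 304 and 711 FPKM in Atf4WT. In bulk tissue, fewer cells of a type and less RNA per cell cannot be told apart.

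Lpl, the lipase itself, was among the most abundant transcripts of the pad, ranking between 8 and 14 of all symbols in every library. Its gene spans 68880491 to 68907448 of chromosome 8, plus strand (GRCm38, as for the positions that follow). Its level was 3475, 5199 and 3963 FPKM in Atf4AKO 1, 2 and 3, against 3217, 3622 and 3596 FPKM in Atf4WT 1, 2 and 3. Atf4AKO 2 stood highest and Atf4AKO 1 lay below 2 of the Atf4WT libraries. The mean was 4212 ± 889 FPKM in Atf4AKO and 3478 ± 227 FPKM in Atf4WT (SD, n = 3 each), a ratio of 1.21. The log2 difference was 0.26 (SE 0.20, limma adjusted p = 0.60), with a 95% interval from -0.22 to 0.74. On the FPKM + 1 scale that interval spans a 1.17-fold lower to a 1.67-fold higher level in Atf4AKO. The Atf4WT libraries were closely alike, with a coefficient of variation of 6.53%, and the Atf4AKO libraries had one of 21.1%. Without Atf4AKO 2 the log2 difference was 0.10.

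Lmf1, the maturation factor, was expressed at a small fraction of the level of its client. Its values were 11.7, 10.3 and 8.84 FPKM in Atf4AKO 1, 2 and 3, against 7.52, 10.8 and 8.51 FPKM in Atf4WT 1, 2 and 3. The groups interleaved. Means were 10.3 ± 1.43 FPKM in Atf4AKO and 8.94 ± 1.68 FPKM in Atf4WT (SD, n = 3 each), and the log2 difference was 0.19 (SE 0.16, limma adjusted p = 0.63, 95% interval -0.21 to 0.58). That difference moved with single libraries, to 0.08 without Atf4WT 1, 0.10 without Atf4AKO 1, 0.28 without Atf4AKO 3 and 0.32 without Atf4WT 2. With the level of skeletal muscle markers as a covariate it was 0.05. Lmf1 spans 25579085 to 25662826 of chromosome 17, plus strand.

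Gpihbp1, the endothelial carrier of the lipase, was the 1 gene of the 8 with a negative difference. It was at 252, 409 and 422 FPKM in Atf4AKO 1, 2 and 3, against 282, 425 and 435 FPKM in Atf4WT 1, 2 and 3. A library of each genotype, Atf4AKO 1 and Atf4WT 1, was low and the other 4 lay within a narrow band. The mean was 361 ± 94.4 FPKM in Atf4AKO and 380.5 ± 85.8 FPKM in Atf4WT (SD, n = 3 each), with a log2 difference of -0.09 (SE 0.27, limma adjusted p = 0.90) and a 95% interval from -0.73 to 0.56. Without Atf4AKO 1 the sign turned, to 0.15, and it was also positive, at 0.0068 and 0.024, without Atf4WT 2 and without Atf4WT 3. The same libraries were the lowest in the endothelial marker list, at -0.18 in Atf4AKO 1 and -0.19 in Atf4WT 1 against values between -0.03 and 0.15 elsewhere, as the mean log2(FPKM + 1) of the markers relative to all 6 libraries. What part this has in the Gpihbp1 level was not tested. Gpihbp1 spans 75596628 to 75599481 of chromosome 15, plus strand, 4.66 Mb from Atf4.

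Angptl4, the secreted inhibitor of the lipase, had the smallest p-value of the 8. Its level was 506, 686 and 583 FPKM in Atf4AKO 1, 2 and 3, against 361, 481 and 508 FPKM in Atf4WT 1, 2 and 3. Overlap rested on a narrow margin, since the lowest Atf4AKO library was just under the highest Atf4WT library. Means were 592 ± 90.2 FPKM in Atf4AKO and 450 ± 78.4 FPKM in Atf4WT (SD, n = 3 each), a ratio of 1.31. The log2 difference of 0.40 (SE 0.19, 95% interval -0.06 to 0.85) had a limma unadjusted p of 0.0763 and an adjusted p of 0.50, and an exact two-sided permutation test gave p = 0.2, where 3 against 3 libraries allow no less than 0.1. Without Atf4WT 1 it was 0.25 and without Atf4AKO 1 it was 0.51. Angptl4 spans 33773750 to 33781830 of chromosome 17, minus strand.

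Vldlr, the lipoprotein receptor whose promoter sequence is printed above, varied most between libraries. It was at 12.3, 14.0 and 9.70 FPKM in Atf4AKO 1, 2 and 3, against 7.36, 19.4 and 6.18 FPKM in Atf4WT 1, 2 and 3. Atf4WT held both the highest library and the 2 lowest, and all Atf4AKO libraries lay inside that range. The mean was 12.0 ± 2.16 FPKM in Atf4AKO and 11.0 ± 7.29 FPKM in Atf4WT (SD, n = 3 each), with coefficients of variation of 18.0% and 66.5%. The log2 difference was 0.27 (SE 0.40, limma adjusted p = 0.77), and its 95% interval from -0.68 to 1.22 spans a 1.61-fold lower to a 2.33-fold higher level in Atf4AKO. Neither its size nor its sign was stable. The difference was 0.73 without Atf4WT 2 (limma unadjusted p = 0.01, adjusted p = 0.57), 0.16 without Atf4AKO 2, 0.09 without Atf4WT 1 and -0.020 without Atf4WT 3. With the level of skeletal muscle markers as a covariate it was -0.10. Vldlr spans 27216484 to 27254231 of chromosome 19, plus strand.

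**Figure D2:**
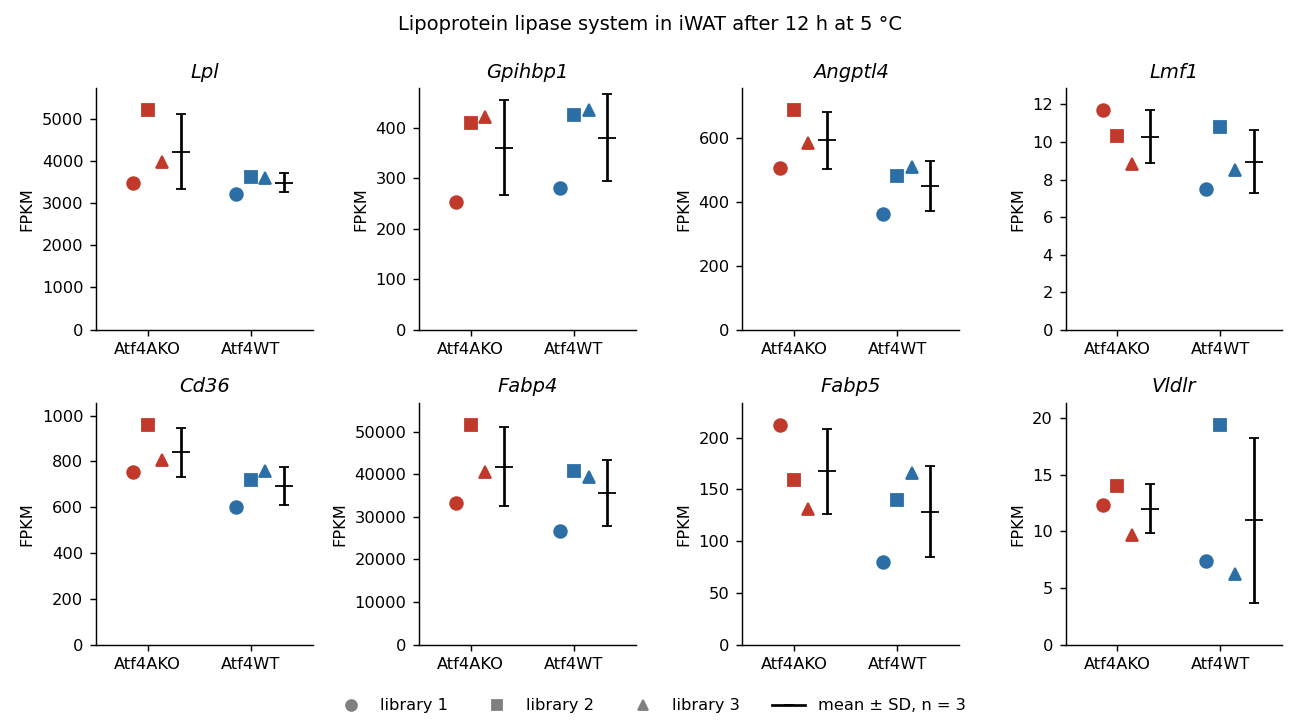
FPKM of the 8 genes in every library, Atf4AKO left and Atf4WT right, each panel on its own linear axis from 0; bars are mean ± SD of 3 libraries. The groups overlap in each panel. Atf4WT 1 is the lowest library for 6 genes, Atf4AKO 2 the highest for 4, and Vldlr spreads from 6.18 to 19.4 FPKM within Atf4WT.

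Cd36, the scavenger receptor that takes up long-chain fatty acids, was the steadiest gene of the system. Values were 753, 959 and 808 FPKM in Atf4AKO 1, 2 and 3, against 601, 721 and 759 FPKM in Atf4WT 1, 2 and 3. Atf4AKO 1 fell between Atf4WT 2 and 3, and the other Atf4AKO libraries were above all of Atf4WT. Over all 6 libraries its coefficient of variation was 15.3%. Means were 840 ± 106.6 FPKM in Atf4AKO and 694 ± 82.5 FPKM in Atf4WT (SD, n = 3 each), a ratio of 1.21. The log2 difference was 0.28 (SE 0.16, limma adjusted p = 0.54) with a 95% interval from -0.11 to 0.66, so a fall of more than 1.08-fold or a rise of more than 1.58-fold in Atf4AKO is outside it. It was 0.18 without Atf4AKO 2 and 0.18 without Atf4WT 1. Cd36 spans 17781690 to 17888801 of chromosome 5, minus strand.

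Fabp4, the fatty acid binding protein of adipocytes, was the most abundant transcript in all 6 libraries. It was at 33276, 51528 and 40583 FPKM in Atf4AKO 1, 2 and 3, against 26604, 40820 and 39267 FPKM in Atf4WT 1, 2 and 3. Spread was alike in the genotypes, with coefficients of variation of 22.0% in Atf4AKO and 21.9% in Atf4WT. The gene alone made up between 5.41% and 7.18% of summed FPKM in Atf4AKO and between 5.08% and 6.53% in Atf4WT. Its mean was 41796 ± 9186 FPKM in Atf4AKO and 35564 ± 7798 FPKM in Atf4WT (SD, n = 3 each), a log2 difference of 0.24 (SE 0.30, limma adjusted p = 0.74, 95% interval -0.48 to 0.95). It was 0.04 without Atf4WT 1, 0.07 without Atf4AKO 2 and 0.39 without Atf4AKO 1. Fabp4 spans 10204088 to 10208576 of chromosome 3, minus strand.

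Fabp5, its relative in skin and macrophages as well as fat, had the largest mean difference and one of the widest intervals. Its values were 212, 159 and 131 FPKM in Atf4AKO 1, 2 and 3, against 80.0, 140 and 166 FPKM in Atf4WT 1, 2 and 3. Atf4AKO 1 was the highest and Atf4WT 1 the lowest, and the other 4 lay between 131 and 166 FPKM. Atf4AKO 1 held the highest level of macrophage markers, at 2.04 above the mean of the libraries, and Atf4WT 1 the highest level of mammary and skin epithelial markers, at 3.07 above it. The part of either in Fabp5 was not tested. The mean was 167 ± 41.3 FPKM in Atf4AKO and 129 ± 43.9 FPKM in Atf4WT (SD, n = 3 each), with a log2 difference of 0.41 (SE 0.31, limma adjusted p = 0.59, 95% interval -0.33 to 1.15). It was 0.23 without Atf4AKO 1, 0.11 without Atf4WT 1 and 0.63 without Atf4WT 3. Of the 50-base words of its transcript, 21.1% also occur in transcripts of 5 other genes, among them the processed pseudogene Fabp5l2, so its level is less certain than those of Fabp4 and Cd36, which share 0 such words. Fabp5 spans 10012548 to 10016607 of chromosome 3, plus strand, 187 kb from Fabp4.

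The order of levels, which FPKM allows between genes because it is per length, was nearly the same in every library. Fabp4 was between 8.27 and 11.3 times as high as Lpl, and Lpl between 4.61 and 5.42 times as high as Cd36. Cd36 exceeded Angptl4 in 6 of 6 libraries, by 1.39 to 1.67 times. Angptl4 exceeded Gpihbp1 in 6 of 6, by 1.13 to 2.01 times, and Gpihbp1 exceeded Fabp5 in 6 of 6, by 1.19 to 3.52 times. Vldlr and Lmf1 closed the order at much lower levels and did not separate, as Vldlr was higher in 4 of 6 libraries. These ranges are between libraries of both genotypes.

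Ratios between genes of the same library, which do not depend on its total, were compared for the inhibitor and the carrier against the enzyme, for the binding proteins, and for the carrier against Cdh5, the cadherin of endothelial junctions. Angptl4 was 14.6%, 13.2% and 14.7% of Lpl in Atf4AKO 1, 2 and 3, against 11.2%, 13.3% and 14.1% in Atf4WT 1, 2 and 3. The inhibitor thus tracked the enzyme closely apart from Atf4WT 1, and the log2 ratio differed by 0.14 (exact two-sided permutation p = 0.3). Gpihbp1 was 7.26%, 7.86% and 10.6% of Lpl in Atf4AKO, against 8.75%, 11.7% and 12.1% in Atf4WT. This was the ratio with the largest gap in either direction, a log2 difference of -0.34 (exact two-sided permutation p = 0.2). Its sign was negative with any library left out, between -0.51 and -0.23, yet the groups overlapped through Atf4AKO 3 and Atf4WT 1.

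Fabp5 was 0.637%, 0.309% and 0.322% of Fabp4 in Atf4AKO, against 0.301%, 0.343% and 0.422% in Atf4WT. Atf4AKO 1 alone stood out, and without it the log2 difference of 0.18 (exact two-sided permutation p = 0.8) became -0.16. Gpihbp1 was 452%, 520% and 508% of Cdh5 in Atf4AKO, against 468%, 687% and 551% in Atf4WT, a log2 difference of -0.19 (exact two-sided permutation p = 0.4). Set against an endothelial gene, the carrier was again lowest in Atf4AKO 1 and Atf4WT 1 within their groups. Adjusted by Benjamini-Hochberg over the 4 ratios, the exact permutation p-values were between 0.533 and 0.8, and none could pass in a design whose smallest p is 0.1.

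**Figure D3:**
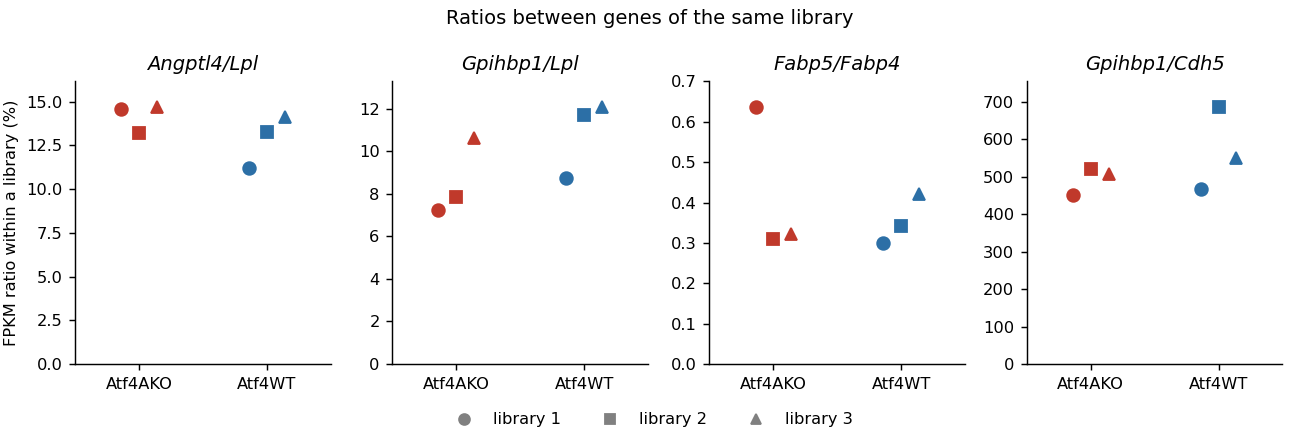
FPKM ratio within each library, in percent on axes from 0, Atf4AKO left and Atf4WT right, 1 symbol per library. Every pair of groups overlaps, and the Fabp5 to Fabp4 ratio of Atf4AKO 1, 0.637%, is apart from the other 5 libraries.

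Several genes of the system were high or low in the same libraries. Atf4WT 1 was the lowest library for 6 of 8 genes and Atf4AKO 2 the highest for 4 of 8. The same libraries had the lowest and the highest sum of FPKM, 524158 in Atf4WT 1 and 717778 in Atf4AKO 2. Adipocyte markers outside the 8 genes followed the same libraries, with a mean level of -0.66 in Atf4WT 1 and 0.47 in Atf4AKO 2 on the log2 scale relative to all libraries, and between -0.03 and 0.12 in the others. Atf4AKO 2 also had the highest level of skeletal muscle markers, at 4.45. With the muscle marker level as a covariate, the median difference of the 8 genes was 0.17, beside -0.00063 over all tested genes. In that fit 0 of 8 were called, and 1 of all 12818 tested genes was. Without Atf4WT 1 the median of the 8 genes was 0.10. After rescaling to equal sums the log2 differences were 0.11 for Lpl, 0.12 for Cd36, 0.08 for Fabp4 and 0.05 for Lmf1. They were 0.25 for Angptl4, 0.26 for Fabp5, 0.13 for Vldlr and -0.24 for Gpihbp1. With 3 libraries per genotype, the fit with the muscle covariate cannot decide the part of muscle in these levels. The part of other tissue makeup was not tested.

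**Figure D4:**
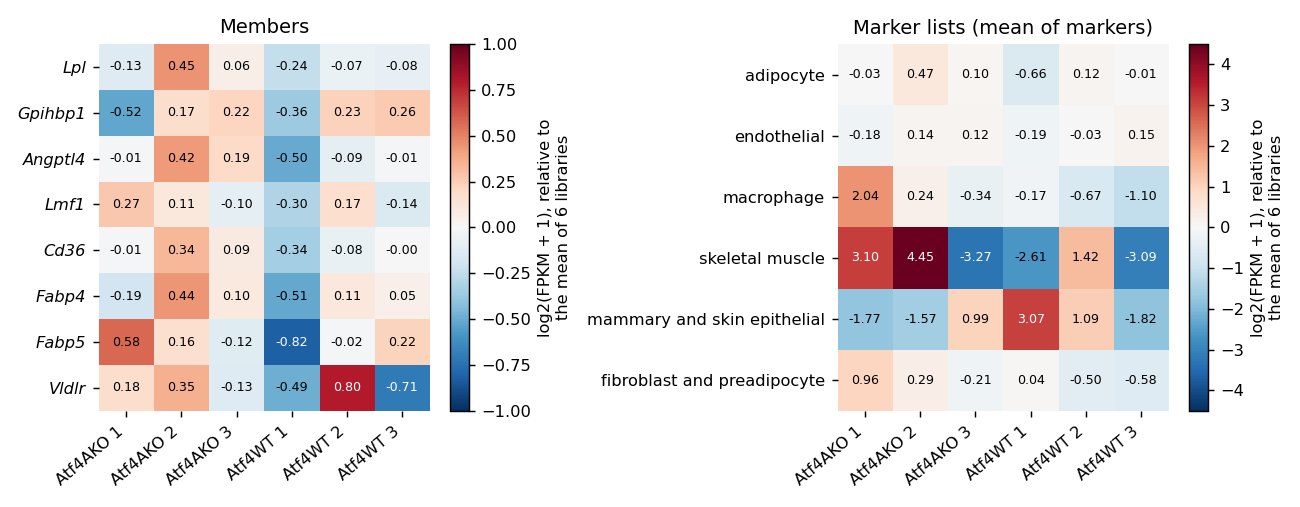
Levels in each library as log2(FPKM + 1) relative to the mean of the 6 libraries, for the 8 genes (left) and as the mean over each marker list (right, on a wider colour scale), Atf4AKO libraries left of Atf4WT libraries. Atf4WT 1 is below the mean in all 8 genes and in adipocyte markers (-0.66), and Atf4AKO 2 is above it in all 8.

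Angptl4 and Cd36 ran in parallel across the 6 libraries, with a Pearson r of 0.99 and a Spearman rho of 1 on log2(FPKM + 1), and r was 0.98 without the 2 libraries farthest from the median of Angptl4. Among the 5423 tested genes that averaged 10 FPKM or more, the genes most like Angptl4 included Peli2 (r 0.99) and Cd36. Those most like Lpl were the water channel gene Aqp1, the phospholipase gene Pnpla8 and Rab28 (r 0.99, 0.99 and 0.98). Gpihbp1 was most like Wdr53, Surf1 and Psma1 (r 0.99, 0.99 and 0.98), but r with Psma1 was 0.25 without the 2 libraries farthest from its median. Lpl correlated with Cd36 at r 0.92 and with Fabp4 at 0.88, but with Gpihbp1 at 0.50 and Fabp5 at 0.31. Without the 2 libraries farthest from the median of Lpl these values were 0.75, 0.67, 0.59 and -0.83. Without the 2 farthest from the median of Gpihbp1, r between Lpl and Gpihbp1 was -0.93. All of these correlations are descriptions of 6 points or fewer, with both genes of a pair measured in the same libraries. Among so many genes, high values arise readily.

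The 3 lists of related genes were counted beside the 8, and no gene in them passed. Of 23 partners of the lipase and handlers of triglyceride-rich lipoproteins 20 were tested, with 12 positive and 8 negative differences and a median of 0.11, beside 0.0046 over all tested genes. Groups lay apart in 3 of the 20, close to the 16.5% of all tested genes that did, so that count does not set the list apart. Sdc4, a heparan sulfate proteoglycan, was at 242, 331 and 226 FPKM in Atf4AKO, against 169, 190 and 147 FPKM in Atf4WT (log2 difference 0.64, SE 0.19, limma adjusted p = 0.50). Apoc1, an apolipoprotein that hinders the lipase, was at 1080, 1184 and 1130 FPKM in Atf4AKO, against 1433, 1393 and 1312 FPKM in Atf4WT (log2 difference -0.29, SE 0.13, limma adjusted p = 0.50). Pcsk6, a proprotein convertase, averaged 13.5 ± 2.92 FPKM in Atf4AKO and 9.11 ± 1.47 FPKM in Atf4WT (SD, n = 3 each), and its groups overlapped.

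Of 26 genes of fatty acid transport, binding and activation 20 were tested, with 9 positive and 11 negative differences and a median of -0.12, against a positive median in the 8 genes. Groups lay apart in 5 of the 20, 1 higher and 4 lower in Atf4AKO, beside 16.5% of all tested genes in either direction. None of the 20 passed the adjusted threshold. Acot1, a cytosolic thioesterase that splits fatty acyl-CoA, was at 5.91, 4.18 and 15.8 FPKM in Atf4AKO, against 28.2, 28.4 and 18.0 FPKM in Atf4WT (log2 difference -1.59, SE 0.44, limma adjusted p = 0.50). Its mitochondrial paralog Acot2 was at 34.8, 28.3 and 36.5 FPKM in Atf4AKO, against 45.4, 42.4 and 62.3 FPKM in Atf4WT (log2 difference -0.56, SE 0.18, limma adjusted p = 0.50). Both were lower in all 3 Atf4AKO libraries than in any Atf4WT library, and since the paralogs are close in sequence, how reads were shared between them is uncertain. Slc27a4, a fatty acid transport protein with acyl-CoA synthetase activity, also lay apart, at 5.42, 4.78 and 6.97 FPKM in Atf4AKO, against 7.37, 12.0 and 8.20 FPKM in Atf4WT (log2 difference -0.59, SE 0.21, limma adjusted p = 0.50).

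All 28 genes of the list around PPAR gamma and lipid-responsive adipocyte genes were tested, with 20 positive and 8 negative differences and a median of 0.19. The adipocyte markers, all but Lep, Thrsp, Adig and Lgals12, are also in this list, so the medians of both lists are not separate observations. The groups overlapped in all 28, so 0 of 28 lay apart, against 16.5% of all tested genes in either direction. Ucp2, an uncoupling protein relative, averaged 154 ± 36.6 FPKM in Atf4AKO and 112 ± 17.5 FPKM in Atf4WT, and Gpd1, which makes glycerol 3-phosphate, averaged 150.5 ± 37.5 FPKM in Atf4AKO and 80.8 ± 65.3 FPKM in Atf4WT (SD, n = 3 each). Pdk4, the kinase that turns off pyruvate dehydrogenase and is induced by fatty acids, averaged 876 ± 116.5 FPKM in Atf4AKO and 656 ± 280 FPKM in Atf4WT (SD, n = 3 each).

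**Figure D5:**
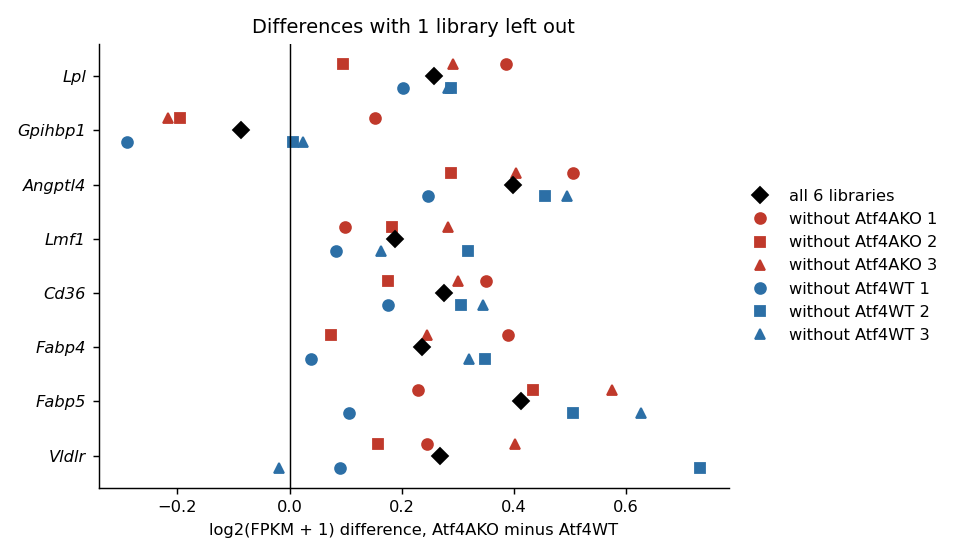
Difference in log2(FPKM + 1), Atf4AKO minus Atf4WT, with all 6 libraries (diamonds) and with each library left out (red, an Atf4AKO library; blue, an Atf4WT library). Lpl, Angptl4, Lmf1, Cd36, Fabp4 and Fabp5 are right of 0 in every case, Gpihbp1 lies on both sides, and Vldlr moves between -0.020 and 0.73.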

How the data were processed

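Per the labels' protocols, TRIzol RNA was made into stranded poly(A) libraries. The authors deposited FPKM, 1 value per symbol and library, and per the submitters' processing notes the build was mm10. The sources used here name no aligner, quantifier or annotation, so read assignment between similar genes and strand use are unknown. Median ratios between libraries were between 0.998 and 1.002 as deposited. FPKM keeps no read totals, so absolute depth is unknown and no counting interval is given. Relative depth, from the steps of values under 0.15 FPKM, ran from 0.933 to 1.19 of the mean.

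Columns were matched to samples by description and groups taken from titles. Genes averaging 0.5 FPKM or more were fitted as log2(FPKM + 1) with limma 3.58.1 in R 4.3.3 (eBayes with trend, no covariate), with adjustment over all 12818 genes. The log2 scale understates changes of low genes. The procedure was tested on simulated data with planted shifts larger than any difference of the members. That test does not show whether differences of their size would be called. Single genes and ratios also got an exact two-sided permutation test in Python 3.11.15. Positions and transcripts are from GENCODE vM21. The genes named in lists are the 3 of smallest p in each, and like patterns are the 3 of highest Pearson r. The values of 1 such gene are left out. The members and lists were chosen with earlier results of these data known. Alternatives covered pseudocount, filter, rescaling, trend, replicate block, a muscle covariate and libraries left out.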

Additional observations from a re-analysis of the deposited data

How the results depend on the processing

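The count of called genes was 0 of 8 under every alternative with more than 1 library in each genotype. Those alternatives called between 0 and 3 of all tested genes, so a count of 0 does not set the 8 apart. Of 128 alternative differences, 16 for each gene, 122 kept their sign and 6 reversed. The filter, trend and replicate block alternatives leave each difference unchanged by construction, so their signs could not reverse. Gpihbp1 (-0.09) became 0.15 without Atf4AKO 1, 0.0068 without Atf4WT 2 and 0.024 without Atf4WT 3. It became 0.27 without the 3 libraries of highest muscle score. Those were Atf4AKO 1, Atf4AKO 2 and Atf4WT 2, so only Atf4AKO 3 was left in its group. Vldlr (0.27) became -0.10 with the muscle score covariate and -0.020 without Atf4WT 3. The cause was not tested. With 1 library left out, differences ran from 0.10 to 0.39 for Lpl, -0.29 to 0.15 for Gpihbp1, 0.25 to 0.51 for Angptl4, 0.08 to 0.32 for Lmf1, 0.18 to 0.35 for Cd36, 0.04 to 0.39 for Fabp4, 0.11 to 0.63 for Fabp5 and -0.020 to 0.73 for Vldlr. The number of genes whose groups did not overlap, 0 with all libraries and after rescaling to equal sums, ran from 0 to 3 with 1 library left out, where 19.6% to 41.3% of all tested genes lay apart. Log2 ratio differences ran from 0.05 to 0.21 for Angptl4 to Lpl, -0.51 to -0.23 for Gpihbp1 to Lpl, -0.16 to 0.37 for Fabp5 to Fabp4 (-0.16 without Atf4AKO 1) and -0.32 to -0.04 for Gpihbp1 to Cdh5. Rescaling to equal sums moved the median of all genes to -0.12 and that of the 8 genes to 0.12, 0.24 above it, against 0.26 above it as deposited. With the replicate block the differences were as before and the smallest limma adjusted p of the 8 was 0.30 (Angptl4, difference 0.40). Over all genes 0 were called against 2, while 1969 against 1276 had a limma unadjusted p under 0.05. Of the 8, Angptl4 alone was among those 1969, against 0 of 8 without the block. Deviations of same-numbered libraries correlated at 0.08, 0.40 and 0.07. Atf4AKO 1 and Atf4AKO 2 correlated best with the Atf4WT library of the same number, but Atf4AKO 3 did so with Atf4WT 1 (0.19). With 3 libraries per genotype these values do not decide whether the numbers pair the libraries. Unknown absolute depth and 3 libraries per genotype limit what could be detected.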

Other observations

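Fabp3, a fatty acid binding protein of heart, muscle and thermogenic fat, was picked with its values in view. It was at 52.3, 52.0 and 72.1 FPKM in Atf4AKO 1, 2 and 3, against 0.333, 249.99 and 15.7 FPKM in Atf4WT 1, 2 and 3. Ucp1, which lets brown and beige adipocytes make heat, was picked likewise and was at 456, 497 and 415 FPKM in Atf4AKO and 15.5, 1370 and 211 FPKM in Atf4WT. Both were highest in Atf4WT 2, the library of highest Vldlr (19.4 FPKM). In Fabp3, Ucp1 and Vldlr all Atf4AKO libraries lay inside the range of the Atf4WT libraries.

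The Angptl4 to Cd36 ratio, also singled out after its values were seen and so given with no test, was 67.2%, 71.5% and 72.2% in Atf4AKO 1, 2 and 3, against 60.0%, 66.8% and 66.8% in Atf4WT 1, 2 and 3. The genotypes did not overlap in this ratio, by a narrow margin of 67.2% in Atf4AKO 1 against 66.8% in Atf4WT 3. Because the ratio was picked with these values in view, the lack of overlap is no evidence of a difference.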
